A study of Mus musculus with 17 samples.

Results

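The forkhead transcription factor genes Foxo1, Foxo3 and Foxp1 were examined for chromatin accessibility in B cells before, during and after differentiation to plasma cells. Accessible regions had been assigned to genes in the deposited annotation, and every region whose nearest transcript or nearest start site belonged to 1 of these 3 genes was taken. This gave 148 regions of 66177, of which Foxo1 had 30, Foxo3 had 16 and Foxp1 had 102. All 148 entered the tests without a filter, and 29, 15 and 97 of them, respectively, had a mean of at least 1 RPPM (reads in a region per 1e6 reads in all regions, the deposited unit).

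Accessibility had been measured by ATAC-seq, in which a transposase cuts and tags open DNA, in 3 cell types from mice of 8 to 12 weeks carrying the strain label B6;129S4-Dnmt3atm3.1Enl Dnmt3btm5.1Enl/Mmnc. Every mouse, controls included, carried Dnmt3a fl/fl and Dnmt3b fl/fl alleles. Dnmt3-deficient mice (KO) also carried 1 allele of a B cell-specific Cre, and their Dnmt3-sufficient littermates (C) carried none. This Cre acts from the early B cell stages on, so only B-lineage cells lose the floxed exons of both genes. Naive B cells (nB; lymph node B220+ Fas- GL7-) came from unimmunized males, with 3 C and 2 KO libraries. Germinal center B cells (GCB; lymph node B220+ Fas+ GL7+, binding phycoerythrin) were pools of 2 mice of the same sex, from females or males, with 2 C and 4 KO libraries. Bone marrow plasma cells (BMPC; CD138+) came from females, with 3 C and 2 KO libraries. Sorting of these latter cell types took place on day 30 of the response to phycoerythrin in complete Freund's adjuvant. Cell type, sex, organ and immunization therefore cannot be told apart between nB and BMPC. Nor can cell type, immunization and pooling between nB and GCB, or cell type, organ and pooling between GCB and BMPC. Sex differed in part in both of these.

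Reads in regions numbered 4104875 to 6079018 per nB library, 907959 to 2280954 per GCB library and 5357687 to 8232313 per BMPC library, and 3 reads corresponded to 0.364 to 3.30 RPPM. Low GCB values thus rest on a few reads, and these limits cover counting error only. Mitochondrial regions took 7.43 to 10.1% of GCB reads and 2.56 to 4.59% in the other cell types. Summed accessibility of the germinal center and plasma cell genes was highest in the cell type of that label. The 5 germinal center genes had 816 to 868 RPPM in GCB_C against 420 to 446 in nB_C and 348 to 378 in BMPC_C. The 5 plasma cell genes had 1170 to 1210 in BMPC_C against 785 to 807 in nB_C and 608 to 667 in GCB_C. Among them Sdc1, which encodes CD138, had 153 in BMPC_C against 30.3 in nB_C and 20.4 in GCB_C. Irf4 had 299 against 283 and 282. The myeloid genes with regions had 180 to 191 in BMPC_C against 103 to 111 in nB_C, and the T cell genes 169 to 195 against 170 to 184. The share of other cells in the sorted BMPC was not tested. Whether the floxed exons were lost was not tested with these data. In bulk libraries, a smaller share of cells with a region open and a less open region in every cell cannot be told apart.

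Forkhead proteins bind DNA through a winged helix domain that reads the core TGTTTAC. Foxo1 and Foxo3 are activators that stay in the nucleus while signalling through phosphoinositide 3-kinase (PI3K) and AKT is low, and AKT phosphorylation sends them to the cytoplasm. Foxo1 is known for its part in B cell development and in the germinal center, Foxo3 for roles in quiescence and cell death, and Foxp1, which acts mostly as a repressor, for early B cell development and the mature follicular B cell.

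The sequences of the regions that changed most between naive and plasma cells are shown first, since they carry the differences described next. Each line gives the central 200 bases of 1 region on the + strand of mm9, outside any annotated exon, with matches on either strand to the cores of forkhead factors (TGTTTAC), E2A (CAGCTG), PU.1 (GGAAGT) and Oct-2 (ATGCAAAT) in capitals. In order they are the Foxp1 region with the largest decrease from nB_C to BMPC_C, the Foxp1 region with the largest increase, the Foxo1 region with the largest decrease, the Foxo1 intronic region with the largest increase, and the Foxo3 region with the largest decrease.
Foxp1 chr6:99300600-99300799: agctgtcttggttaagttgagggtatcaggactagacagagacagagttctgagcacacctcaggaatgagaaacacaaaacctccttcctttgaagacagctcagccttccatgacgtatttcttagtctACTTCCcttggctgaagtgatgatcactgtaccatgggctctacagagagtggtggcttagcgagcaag
Foxp1 chr6:98899933-98900132: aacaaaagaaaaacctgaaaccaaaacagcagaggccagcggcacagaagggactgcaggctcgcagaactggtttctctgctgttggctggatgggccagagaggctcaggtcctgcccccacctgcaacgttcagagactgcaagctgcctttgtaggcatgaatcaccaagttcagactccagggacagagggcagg
Foxo1 chr3:52164897-52165096: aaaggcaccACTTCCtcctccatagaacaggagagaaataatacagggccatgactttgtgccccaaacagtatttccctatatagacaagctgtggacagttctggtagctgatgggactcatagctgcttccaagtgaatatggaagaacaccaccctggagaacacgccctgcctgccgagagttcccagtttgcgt
Foxo1 chr3:52135818-52136017: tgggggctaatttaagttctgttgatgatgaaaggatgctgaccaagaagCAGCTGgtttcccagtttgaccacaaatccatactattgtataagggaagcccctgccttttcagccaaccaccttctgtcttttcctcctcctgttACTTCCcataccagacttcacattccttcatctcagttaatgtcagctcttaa
Foxo3 chr10:41940424-41940623: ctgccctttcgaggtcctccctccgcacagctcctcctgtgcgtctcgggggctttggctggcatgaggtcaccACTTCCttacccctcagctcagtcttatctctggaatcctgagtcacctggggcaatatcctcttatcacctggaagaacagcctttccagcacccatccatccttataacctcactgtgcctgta
None of these 5 windows held the forkhead core. A PU.1 core lay in the windows of the 3 regions that lost accessibility and in the Foxo1 intronic region that gained it, and the last of these also held an E2A core. The central window of the Foxp1 region with the second-largest decrease, chr6:99272524-99272723, held no PU.1 core. No share of all regions was taken for windows of this width. A match is a description of letters and not a site of binding.

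Over all 148 regions, the forkhead core occurred in 14 (9.46%), beside 6.43% of all regions of the same width. Foxp1 had it in 10 of 102 regions (9.80%, beside 6.57%), Foxo1 in 2 of 30 and Foxo3 in 2 of 16. With an 8-base core (TTGTTTAC or CTGTTTAC) the count was 10 of 148 (6.76%, beside 3.83%). The E2A core occurred in 33 (22.3%, beside 26.8%), the PU.1 core in 52 (35.1%, beside 37.1%), the short IRF4 core GAAAC in 109 (73.6%, beside 65.7%) and the Oct-2 core in 11 (7.43%, beside 5.11%). The following 41-base windows, again on the + strand of mm9, show the forkhead core in capitals (as GTAAACA where it lies on the - strand) at the Foxo1 start site, in the Foxo3 promoter region next to the start-site region, which itself held no core, and in the 5 Foxp1 regions with the core that were called between nB_C and BMPC_C.
Foxo1 chr3:52071969-52072009: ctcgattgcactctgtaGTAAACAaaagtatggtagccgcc
Foxo3 chr10:41998066-41998106: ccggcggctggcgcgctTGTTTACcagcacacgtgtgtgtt
Foxp1 chr6:99057802-99057842: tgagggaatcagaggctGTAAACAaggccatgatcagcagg
Foxp1 chr6:99141451-99141491: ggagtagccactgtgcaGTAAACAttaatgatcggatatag
Foxp1 chr6:99155234-99155274: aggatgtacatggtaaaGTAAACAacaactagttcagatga
Foxp1 chr6:99211481-99211521: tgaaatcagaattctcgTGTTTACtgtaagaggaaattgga
Foxp1 chr6:99465658-99465698: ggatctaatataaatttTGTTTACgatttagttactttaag
Of these 5 Foxp1 regions, the last listed and the region at chr6:99141014-99142001 gained accessibility in BMPC_C and the other 3 lost it.

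The first comparison asked how accessibility at these genes differs between naive, germinal center and plasma cells of Dnmt3-sufficient mice. Foxp1 lost accessibility at 52 of its 102 regions in plasma cells and at 29 in germinal center B cells. Foxo3 lost accessibility at 4 of its 16 regions in germinal center B cells, and Foxo1 had called regions in both directions in plasma cells. Summed over its regions, Foxp1 had 1092, 1003 and 1021 RPPM in the nB_C libraries, 629 and 638 in GCB_C, and 669, 570 and 623 in BMPC_C. The nB_C libraries lay above all others of the C genotype, and GCB_C and BMPC_C overlapped. Foxo1 summed to 307 ± 10.9 (SD, n = 3) in nB_C, 263 ± 11.4 (n = 2) in GCB_C and 376 ± 8.76 (n = 3) in BMPC_C, and no libraries of these groups overlapped. Foxo3 summed to 239 ± 6.28, 137 ± 11.5 and 215 ± 7.20 in the same groups, with GCB_C lowest. These sums are descriptions and were not tested.

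The test was limma's moderated fit of log2(RPPM + 1), with Benjamini-Hochberg adjustment across the 66177 regions. A call needed an adjusted p no higher than 0.01 and a difference of 1 or more on that log2 scale, which understates the change of regions with low values. From nB_C to BMPC_C, Foxp1 had 52 of 102 regions called less accessible (51.0%, beside 20.1% of all regions) and 9 called more accessible (18.0% of all regions). Foxo1 had 2 of 30 called lower (6.67%) and 4 higher (13.3%), both under the shares of all regions, and both edgeR tests called 5 lower and 6 higher. Foxo3 had 3 of 16 lower and 0 higher. At an unadjusted limma p under 0.05, 5 Foxo3 regions were lower and 1 higher (30.0% of all regions each way). The median difference over Foxp1 regions was -1.11, beside 0.03 over all regions, 0.15 for Foxo1 and -0.22 for Foxo3, and with a pseudocount of 5 RPPM the Foxp1 median was -0.45. From nB_C to GCB_C, 29 Foxp1 regions were lower (8.47% of all regions) and 2 were higher (14.2%), 4 Foxo3 regions (25%) and 1 Foxo1 region were lower, and the medians were -0.55, -0.61 and -0.13 for Foxp1, Foxo3 and Foxo1. With quantile normalization the 34 lower calls over the 3 genes became 45, of which 5 were Foxo1 regions, and the Foxo1 median was -0.32, while the median of all regions moved from 0.05 to -0.06. Both comparisons share the nB_C libraries. From GCB_C to BMPC_C, Foxp1 had 21 lower (19.1% of all regions) and 8 higher (11.3%), Foxo1 had 2 lower and 7 higher, and Foxo3 had 2 higher. With quantile normalization the 17 higher and 23 lower calls of this last comparison over the 3 genes became 22 and 11, and the Foxp1 median went from -0.24 to 0.04, while the median of all regions moved from -0.06 to 0.09.

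**Figure D1:**
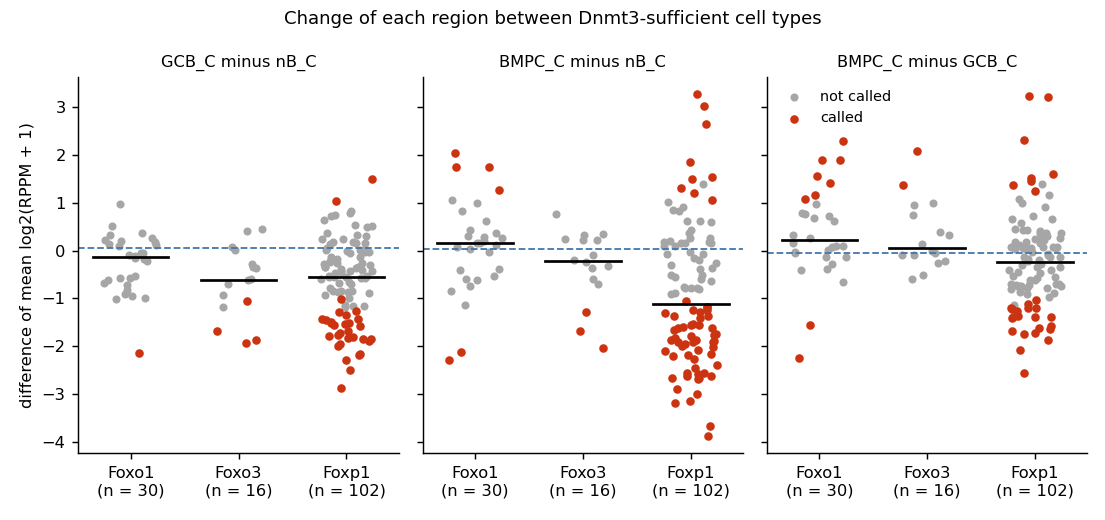
Difference of mean log2(RPPM + 1) between Dnmt3-sufficient cell types for each region (points, red where called) of Foxo1, Foxo3 and Foxp1, with the gene's median (black bar) and the median of all 66177 regions (dashed line). In BMPC_C minus nB_C, 52 of the 102 Foxp1 points are called below 0 and the Foxp1 median is -1.11.

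In the KO genotype, tested in other mice, 36 Foxp1 regions were called lower in BMPC_KO than nB_KO (16.9% of all regions) and 13 higher (18.4%), with 2 lower and 7 higher for Foxo1 and 1 lower and 2 higher for Foxo3. From nB_KO to GCB_KO, Foxp1 had 28 lower (7.84% of all regions) and 3 higher (18.4%), Foxo1 1 lower and Foxo3 3 lower. Called in the same direction in both genotypes were 52 of the 148 regions for nB to BMPC (30.5% of all regions), of which 45 were Foxp1 regions, 24 for nB to GCB (17.5%) and 22 for GCB to BMPC (23.6%). The Foxp1 median from nB to BMPC was -0.38 in KO cells.

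Foxo1, the member with the most intergenic regions, spread over 188 kb of chromosome 3 from 52046337 to 52234437, with 2 regions at its promoter, 12 in introns and 16 outside genes. Its start-site region, chr3:52071736-52073006, had 73.6, 71.2 and 68.5 RPPM in nB_C, 40.9 and 45.0 in GCB_C, and 69.6, 76.3 and 73.3 in BMPC_C. The GCB_C libraries were the lowest and nB_C and BMPC_C overlapped. The difference was -0.72 ± 0.14 (SE; limma adjusted p = 0.000173) from nB_C to GCB_C, under the limit for a call, and 0.04 ± 0.13 (adjusted p = 0.818) from nB_C to BMPC_C. A region upstream of the start, chr3:52070442-52070785, had 4.14, 3.77 and 2.79 RPPM in nB_C, 4.84 and 3.28 in GCB_C, and 16.9, 16.8 and 19.2 in BMPC_C. It rose by 2.04 ± 0.24 (adjusted p = 2.74e-08) from nB_C to BMPC_C, and every BMPC library, including 19.7 and 18.9 in BMPC_KO, lay above every nB and GCB library.

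In the introns of Foxo1 and beyond the gene, regions moved in different ways. The intronic region chr3:52135570-52136265 had 7.31, 5.84 and 5.21 RPPM in nB_C and 20.4, 23.4 and 24.4 in BMPC_C, a rise of 1.74 ± 0.21 (limma adjusted p = 4.35e-08), and the groups did not overlap. The intronic region chr3:52102579-52103184 rose by the same 1.74 ± 0.31 (adjusted p = 2.31e-05), from 1.90 ± 0.552 (SD, n = 3) to 8.69 ± 1.82 RPPM (n = 3). The intronic region chr3:52147422-52147882 had 13.4, 8.29 and 8.75 RPPM in nB_C, 2.20 and 0.937 in GCB_C, and 11.1, 12.8 and 9.65 in BMPC_C. It was thus low in germinal center cells and at naive levels in plasma cells, with a fall of 2.13 ± 0.34 (adjusted p = 9.84e-06) from nB_C to GCB_C and a rise of 2.28 ± 0.34 (adjusted p = 2.28e-06) from GCB_C to BMPC_C. Downstream of the gene, chr3:52164672-52165321 had 8.77, 8.48 and 10.4 RPPM in nB_C, 11.0 and 7.03 in GCB_C, and 1.43, 1.28 and 0.623 in BMPC_C. Only its BMPC_C libraries were low among these groups, and it fell by 2.29 ± 0.26 (adjusted p = 2e-08) from nB_C. A second downstream region, chr3:52196399-52196697, fell by 2.12 ± 0.31 (adjusted p = 1.65e-06), from 15.0 ± 1.21 to 2.74 ± 0.824 RPPM. The distal region with the highest Foxo1 level away from the promoter, chr3:52199919-52200661, had 55.0 ± 3.88, 64.3 ± 15.7 and 67.0 ± 4.33 RPPM in nB_C, GCB_C and BMPC_C and was not called in any comparison.

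Foxo3 lay on the - strand of chromosome 10, and its 16 regions reached from 41908135 to 42028328, with 2 at the promoter, 11 in introns and 3 outside genes. Its promoter region chr10:41997226-41998296 had the highest mean of all 148, with 116, 125 and 111 RPPM in nB_C, 68.6 and 83.4 in GCB_C, and 102, 96.3 and 97.5 in BMPC_C. The start-site region beside it, chr10:41996236-41996888, had 46.0, 49.9 and 45.4 RPPM in nB_C, 21.1 and 23.4 in GCB_C, and 43.7, 45.2 and 43.6 in BMPC_C. Both were lowest in GCB_C, and the start-site region fell by 1.05 ± 0.14 (limma adjusted p = 7.02e-07) from nB_C to GCB_C. From nB_C to BMPC_C it differed by -0.09 ± 0.12 (adjusted p = 0.562). Lower start sites in GCB_C than nB_C were not particular to Foxo1 and Foxo3. In the gene lists described below, 5 of 21 Foxo target genes and 2 of 7 Foxo modifiers were called lower, and 1 and 0 higher. For the PI3K-AKT axis 2 of 15 were lower and 1 higher, and for forkhead relatives 1 of 10 lower and 2 higher. Of all regions, 8.47% were called lower and 14.2% higher. Only 21.7% of all regions were at promoters, so these are not shares of start sites. Falls under the limit for a call, such as that at the Foxo1 start site, are not in these counts. Without that limit, most start-site regions of the listed genes had a difference below 0, all 7 Foxo modifiers among them.

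The Foxo3 intronic region chr10:41940265-41940781 had 6.33, 6.22 and 7.63 RPPM in nB_C, 1.76 and 0.468 in GCB_C, and 1.56, 1.28 and 0.156 in BMPC_C, and all libraries of the latter 2 cell types lay under the naive ones. It fell by 1.94 ± 0.43 to GCB_C (limma adjusted p = 0.000645) and by 2.03 ± 0.39 to BMPC_C (adjusted p = 5.63e-05), on 1 to 4 reads per GCB_C library and 1 to 12 per BMPC_C library. Nearby, chr10:41939934-41940120 and chr10:41945991-41946303 fell by 1.68 ± 0.43 (adjusted p = 0.00152) and 1.29 ± 0.35 (adjusted p = 0.00235) from nB_C to BMPC_C, from 3.06 and 2.42 RPPM. Closer to the start, chr10:41993611-41993798 had 9.99, 11.1 and 8.75 RPPM in nB_C, 1.32 and 2.81 in GCB_C, and 10.4, 14.6 and 10.3 in BMPC_C, the same low-in-germinal-center order as the Foxo1 intronic region at 52147422. Its difference was -1.88 ± 0.41 (adjusted p = 0.000595) from nB_C to GCB_C and 2.08 ± 0.41 (adjusted p = 0.00013) from GCB_C to BMPC_C. A further intronic region, chr10:41988923-41989668, rose by 1.37 ± 0.18 from GCB_C to BMPC_C (adjusted p = 5.57e-07), from 10.4 ± 0.465 to 28.6 ± 2.43 RPPM.

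**Figure D2:**
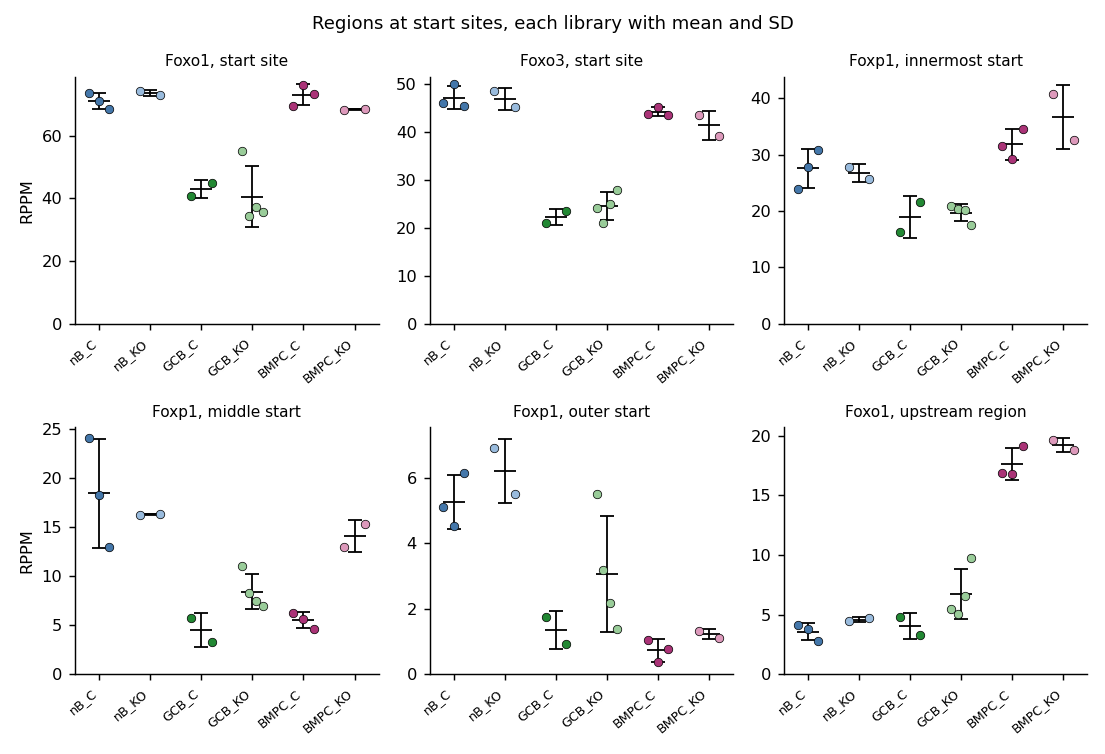
RPPM of 6 regions at or near start sites of Foxo1, Foxo3 and Foxp1 in each library (points) of the 6 groups, with the group mean and SD (bars). The Foxo1 and Foxo3 start sites are lowest in germinal center B cells. Most start-site regions of other listed genes also had a difference below 0 from nB_C to GCB_C, and some of these were called. The Foxp1 middle start is at 4.67 to 6.24 RPPM in BMPC_C and at 13.0 and 15.3 in BMPC_KO.

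Foxp1, on the - strand of chromosome 6, had 102 regions between 98783988 and 99473432, a span of 689 kb, with 7 at promoters, 1 in an exon, 89 in introns and 5 outside genes. Its transcripts begin at several start sites. The region at the innermost start, chr6:98977970-98978900, had 23.9, 27.9 and 30.9 RPPM in nB_C, 16.3 and 21.5 in GCB_C, and 31.6, 29.2 and 34.6 in BMPC_C, and was not called in any comparison. The region at the middle start, chr6:99216055-99216651, chosen for description after its values were seen, had 24.1, 18.3 and 13.0 RPPM in nB_C, 5.72 and 3.28 in GCB_C, and 6.24, 5.66 and 4.67 in BMPC_C. Here the naive libraries lay above all others of the C genotype, and the fall was 1.82 ± 0.26 to GCB_C (limma adjusted p = 2.52e-06) and 1.54 ± 0.23 to BMPC_C (adjusted p = 2.15e-06). At a start further out, chr6:99385148-99385618, also chosen after its values were seen, the level was 5.26 ± 0.820 RPPM in nB_C, 1.35 ± 0.582 in GCB_C and 0.728 ± 0.341 in BMPC_C, and it fell by 1.87 ± 0.33 to BMPC_C (adjusted p = 2.28e-05).

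The losses were most frequent on the outer side of the gene and least frequent downstream of the innermost start. Upstream of and at the middle start, 30 of 47 regions were called lower and 3 higher from nB_C to BMPC_C. Between the middle and the innermost start 16 of 34 were lower and 4 higher, and downstream of the innermost start 6 of 21 were lower and 2 higher. Of all regions, 20.1% were lower and 18.0% higher. The medians were -1.56, -0.85 and -0.16 in these stretches, which were set after the values were seen. From nB_C to GCB_C, 19, 8 and 2 regions of the same stretches were called lower (8.47% of all regions). There 0, 2 and 0 were called higher (14.2% of all regions), and the medians were -0.86, -0.47 and -0.23. Summed RPPM of the outer stretch was 437 ± 42.0 in nB_C, 169 ± 14.6 in GCB_C and 152 ± 36.1 in BMPC_C.

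**Figure D3:**
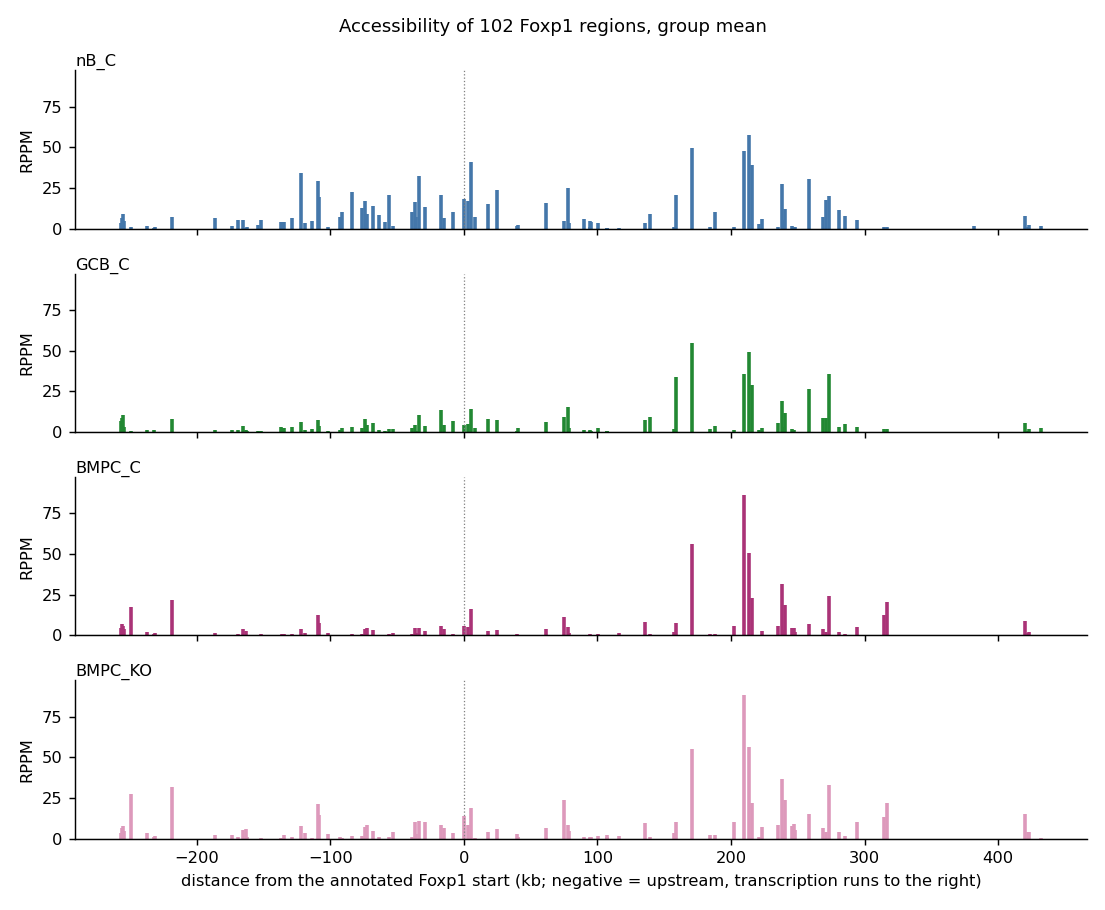
Mean RPPM of each of the 102 Foxp1 regions (vertical lines) against its distance in kb from an annotated start of the gene, in nB_C, GCB_C, BMPC_C and BMPC_KO. The upstream side, which summed to 437 RPPM in nB_C over 47 regions, sums to 169 in GCB_C, 152 in BMPC_C and 263 in BMPC_KO, and 3 of its regions were called higher in BMPC_C than nB_C.

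The deepest losses were in introns. The region chr6:99300400-99300999 had 24.8, 20.0 and 22.9 RPPM in nB_C, 2.64 and 3.75 in GCB_C, and 1.04, 0.365 and 0.467 in BMPC_C. The levels of the 3 cell types did not overlap, and the fall was 2.50 ± 0.31 to GCB_C (limma adjusted p = 2.92e-07) and 3.88 ± 0.28 to BMPC_C (adjusted p = 2.92e-12), the latter on 2 to 8 reads per BMPC_C library. The region chr6:99272243-99273003 went from 21.0 ± 2.57 RPPM in nB_C to 2.07 ± 1.05 in GCB_C and 0.763 ± 0.483 in BMPC_C, falling by 2.88 ± 0.32 (adjusted p = 4.03e-08) and 3.67 ± 0.28 (adjusted p = 1.35e-11). At chr6:99307917-99308384 the fall to BMPC_C was 3.19 ± 0.32 (adjusted p = 1.7e-09), from 10.1 ± 1.80 RPPM. Both regions with the largest falls from GCB_C to BMPC_C kept naive levels or more in germinal center cells. They were chr6:99076739-99077210, at 8.88 ± 1.61 RPPM in nB_C, 9.01 ± 2.81 in GCB_C and 0.720 ± 0.517 in BMPC_C, and chr6:99057151-99057885, at 20.5 ± 3.40, 34.0 ± 1.69 and 7.36 ± 1.53, with falls from GCB_C of 2.55 ± 0.32 (adjusted p = 1.98e-07) and 2.08 ± 0.20 (adjusted p = 2.47e-09).

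Against this, a few Foxp1 regions opened in plasma cells. The intronic region chr6:98899613-98900451 had 1.22, 0.942 and 1.67 RPPM in nB_C, 0.440 and 2.81 in GCB_C, and 19.2, 24.1 and 19.0 in BMPC_C. The intronic region chr6:99465484-99466261, near the outermost start and holding a forkhead core, had 1.46, 0.942 and 1.30 RPPM in nB_C, 0.880 and 0.937 in GCB_C, and 21.7, 13.7 and 16.2 in BMPC_C. Both were near the level of a few reads outside plasma cells, and rose by 3.26 ± 0.37 (limma adjusted p = 1.47e-08) and 3.01 ± 0.29 (adjusted p = 7.76e-10) from nB_C to BMPC_C. In BMPC_KO they had 26.0 and 17.4, and 28.3 and 26.1 RPPM. A region overlapping an exon, chr6:98901664-98902235, rose by 2.64 ± 0.36 (adjusted p = 5.02e-07). The 2 regions called higher from nB_C to GCB_C, chr6:98981385-98981648 (1.49 ± 0.31, adjusted p = 0.00033) and chr6:99080901-99081506 (1.03 ± 0.31, adjusted p = 0.00933), were at 5.44 and 7.27 RPPM in GCB_C. The Foxp1 region with the highest mean over all 16 libraries, chr6:99044625-99046825, had 49.6 ± 0.857, 55.0 ± 6.86 and 56.4 ± 1.32 RPPM in nB_C, GCB_C and BMPC_C and was not called.

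**Figure D4:**
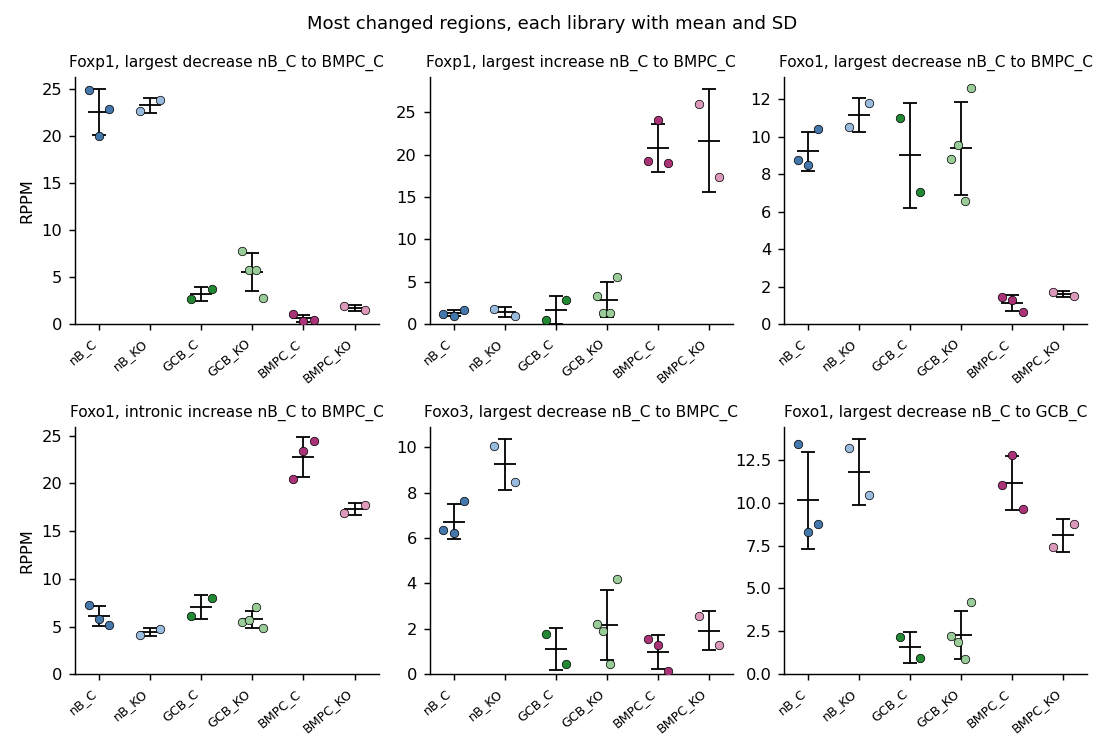
RPPM of the most changed regions of Foxp1, Foxo1 and Foxo3 in each library (points) of the 6 groups, with the group mean and SD (bars, on axes from 0). The Foxp1 region with the largest decrease falls from 20.0 to 24.8 RPPM in nB_C to 0.365 to 1.04 in BMPC_C, and the Foxp1 region with the largest increase reaches 19.0 to 24.1 in BMPC_C.

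The second comparison asked whether the loss of Dnmt3a and Dnmt3b changed accessibility at these genes. No region of the 3 genes was called between KO and C in nB (0% of all regions), in GCB (0.0317% of all regions higher in KO, 0% lower) or in BMPC (0.0907% higher, 0.0136% lower), and none had a KO effect called different between cell types (0% of all regions). At an unadjusted limma p under 0.05, 2 Foxp1 regions differed in nB, 3 Foxo1, 2 Foxo3 and 18 Foxp1 regions in GCB, and 4 Foxo1, 3 Foxo3 and 39 Foxp1 regions in BMPC. In nB 0.630% of all regions were higher in KO and 1.04% lower at this limit. The 18 Foxp1 regions in GCB were 14 higher and 4 lower (13.7% and 3.92%, beside 7.45% and 4.34% of all regions). All 39 Foxp1 regions in BMPC were higher in KO, where 6.96% of all regions were higher and 2.59% lower at this limit.

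In plasma cells the Foxp1 regions stood higher in KO as a group. Of the 102 regions, 93 had a difference above 0, beside 54.2% of all regions, and the median was 0.62 beside 0.03. The size of this median moved with the pseudocount, to 0.83 with 0.1 RPPM and 0.26 with 5 RPPM, where 95 and 91 regions were above 0. It also moved with the scaling. With quantile normalization it was 0.47, with 90 regions above 0, beside 47.6% of all regions, and 25 higher at an unadjusted limma p under 0.05. With TMM scaling it was 0.56, with 89 above 0, beside 46.3% of all regions. Every BMPC_KO library lay above every BMPC_C library at 70 Foxp1 regions (68.6%, beside 20.0% of all regions), and below at 2 (13.8% of all regions), while Foxo1 had 11 above and 4 below of 30 and Foxo3 6 above and 2 below of 16. Summed over all regions, Foxp1 had 669, 570 and 623 RPPM in BMPC_C and 900 and 832 in BMPC_KO, and the groups did not overlap. The KO sums stayed under the nB_KO sums of 1079 and 1012 RPPM. Foxo1 had 376 ± 8.76 (n = 3) and 406 ± 23.1 (n = 2), and Foxo3 215 ± 7.20 and 212 ± 3.04, in BMPC_C and BMPC_KO. The Foxo3 median difference of 0.21 was 0.0472, with 8 of 16 regions above 0, without BMPC_KO replicate 2. The Foxp1 regions share libraries and a locus and are not independent, so no test was made over them.

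In BMPC the higher KO values lay along the whole gene. The median differences were 0.62, 0.60 and 0.62 in the outer, middle and inner stretches, and 34 of 47, 22 of 34 and 14 of 21 regions had every KO library above every C library. The summed RPPM of the outer stretch ran from 123 to 193 in BMPC_C and from 261 to 266 in BMPC_KO. In GCB the outer stretch ran from 159 to 179 in C and from 212 to 252 in KO, and in nB from 406 to 485 in C and from 413 to 472 in KO, so for this stretch the groups overlapped only in nB. In GCB the genotypes overlapped in the middle stretch, at 333 to 343 in C and 313 to 345 in KO, and in the inner stretch, at 117 to 137 and 102 to 156.

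**Figure D5:**
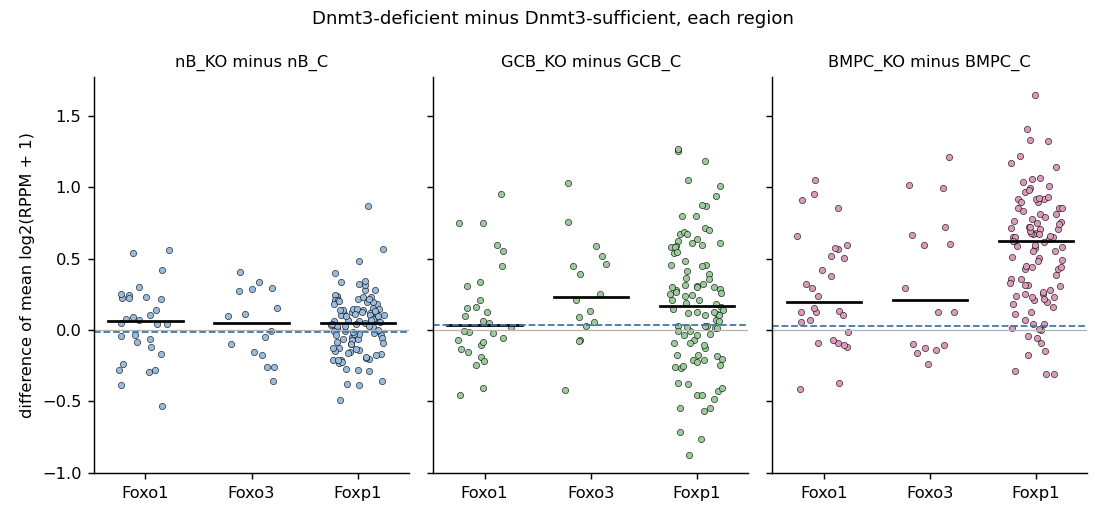
Difference of mean log2(RPPM + 1) between Dnmt3-deficient and Dnmt3-sufficient cells for each region (points) of Foxo1, Foxo3 and Foxp1 in nB, GCB and BMPC, with the gene's median (black bar) and the median of all regions (dashed line). In BMPC, 93 of the 102 Foxp1 points lie above 0 around a median of 0.62, and the medians of Foxo1 and Foxo3 are 0.20 and 0.21.

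The Foxp1 region with the smallest p between KO and C in BMPC was the intronic region chr6:98957431-98958129. It had 7.02, 5.84 and 9.03 RPPM in BMPC_C and 15.7 and 14.9 in BMPC_KO, beside 30.7, 27.7 and 33.9 in nB_C. The KO values lay between the plasma cell and naive values of C mice, and the KO difference was 0.99 ± 0.21 (limma adjusted p = 0.0204). The middle start, chr6:99216055-99216651, had 6.24, 5.66 and 4.67 RPPM in BMPC_C and 13.0 and 15.3 in BMPC_KO, a difference of 1.22 ± 0.26 (adjusted p = 0.0216). From nB_KO to BMPC_KO this start differed by -0.20 ± 0.29 (adjusted p = 0.598), beside the fall of 1.54 ± 0.23 in C mice, and the difference between these changes, 1.35 ± 0.37, was not called (adjusted p = 0.417). For Foxo1, chr3:52194716-52195196 had the smallest p, at 5.04 ± 0.378 RPPM in BMPC_C and 10.1 ± 3.35 in BMPC_KO (0.85 ± 0.26, adjusted p = 0.145). For Foxo3 it was chr10:41908135-41908672, at 2.83 ± 0.964 and 7.74 ± 0.911 (1.21 ± 0.38, adjusted p = 0.161).

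Count tests on the reads recovered from the RPPM values called more. The edgeR quasi-likelihood test called 8 Foxp1 regions and 1 Foxo3 region higher in BMPC_KO (1.45% of all regions higher, 0.361% lower), the edgeR likelihood ratio test 10 and 1 (2.01% higher, 0.526% lower), and DESeq2 5 Foxp1 regions (0.610% higher, 0.128% lower). Each of the 3 tests called 0 regions of the 3 genes lower. The middle start was called by each, with an adjusted p of 0.000111 in the quasi-likelihood test and 0.00114 in DESeq2, as were chr6:99245467-99246011, chr6:99250223-99250735 and chr6:99252947-99253527, 3 intronic regions upstream of it. With limma, leaving out BMPC_C replicate 1 gave 1 call and leaving out GCB_KO replicate 1, the shallowest library, gave 2.

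Marker genes of other cells were set beside this result. The 5 B lineage genes summed to 245 to 271 RPPM in BMPC_C and 248 to 290 in BMPC_KO, and the 5 naive B genes to 361 to 392 and 377 to 412, against 792 to 864 and 944 to 975 in nB_C. The 5 plasma cell genes summed to 1170 to 1210 in BMPC_C and 1247 to 1256 in BMPC_KO, and the T cell genes with regions (4 of 7, none for Cd3g, Cd8a and Thy1) to 169 to 195 and 150 to 153. The myeloid genes (5 of 6, none for Lyz2) had 180 to 191 and 178 to 186, the erythroid genes (3 of 5, none for Gata1 and Hba-a1) 64.2 to 74.1 and 72.0 to 72.2, and the NK gene Klrb1c (1 of 3, none for Ncr1 and Nkg7) 478 to 483 and 444 to 486. Thus the plasma cell and T cell sums did not overlap between genotypes, higher and lower in KO respectively, and the others did overlap. The 5 germinal center genes had 348 to 378 in BMPC_C and 356 to 364 in BMPC_KO. The part of these cells, and of the BMPC_KO library that the authors left out, in the Foxp1 result was not tested.

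Other genes of the same pathway were described by their start-site regions and by all of their regions. Of 15 genes of the PI3K-AKT axis, 1 start site was called higher and 3 lower from nB_C to BMPC_C, and 1 higher and 2 lower from nB_C to GCB_C. The start site of Pik3ca, which encodes a catalytic subunit of PI3K, rose by 2.97 (limma adjusted p = 1.28e-08), from 0.499 ± 0.432 RPPM in nB_C to 10.4 ± 1.28 in BMPC_C. The nB_C level was near that of 3 reads, and of the 8 Pik3ca regions 4 were called higher and 3 lower. Pik3ip1, an inhibitor of PI3K, fell by 1.28 (adjusted p = 6.6e-06) and Inpp5d, which encodes the phosphatase SHIP1, by 1.04 (adjusted p = 1.9e-06), while Sgk3, an AKT-related kinase, fell by 1.06 from nB_C to GCB_C (adjusted p = 2.47e-07). Over the 202 regions of this list, 15.8% were called higher and 33.2% lower from nB_C to BMPC_C, beside 18.0% and 20.1% of all regions.

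Of 23 genes known as Foxo targets, 21 had regions (none for Rag1 and Rag2), and their start sites were called lower in 3 and higher in 0 from nB_C to BMPC_C, and lower in 5 and higher in 1 from nB_C to GCB_C. Ccr7, a receptor that guides lymphocytes into lymph nodes, fell by 1.86 to BMPC_C (limma adjusted p = 4.16e-10), and Il7r, the interleukin 7 receptor, fell by 1.29 (adjusted p = 0.00312). Over their 317 regions, 51.4% were called lower and 7.57% higher from nB_C to BMPC_C, beside 20.1% and 18.0% of all regions, with a median of -1.10 beside 0.03. From nB_C to GCB_C 20.5% were lower and 9.46% higher, beside 8.47% and 14.2%. Ccr7 and Bcl6 also stand in the marker lists.

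Among 7 Foxo modifiers, the deacetylase gene Sirt1 and the acetyltransferase gene Crebbp were lower at the start site in GCB_C than nB_C (by 1.25 and 1.26, limma adjusted p = 1.23e-08 for both), and 0 of 7 were called from nB_C to BMPC_C, where 7 of their 42 regions were higher and 8 lower (16.7% and 19.0%, beside 18.0% and 20.1% of all regions). Of 12 forkhead relatives, 10 had regions (none for Foxp3 and Foxm1). The start sites of Foxo6 and Foxp2 were higher in GCB_C (1.18 and 1.74, adjusted p = 1.38e-06 and 0.000441) and that of Foxp4 was lower (by 1.12, adjusted p = 1.32e-06), and 0 were called from nB_C to BMPC_C. Over the 102 regions of these relatives, 27.5% were lower and 10.8% higher in BMPC_C than nB_C, beside 20.1% and 18.0% of all regions. None of these start sites was called between KO and C in any cell type.

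The genes whose summed accessibility over the 16 libraries followed the 3 genes most closely were found among 1594 others with at least 10 regions, as a description over 6 groups. For Foxp1 they were Cux1, Dip2c, Slc38a11, Mir721 and Rin3 (Pearson r of log2 sums 0.937 to 0.946), each lower in BMPC_C than nB_C and higher in BMPC_KO than BMPC_C. For Foxo1 they were Arid3b, Rbm47, Etv3, Fgd2 and Pecam1 (r = 0.965 to 0.975), highest in BMPC. For Foxo3 they were Ski, Zmynd11, Myh9, Jarid2 and Tmem170b (r = 0.964 to 0.969), lowest in GCB. All were picked by this correlation over the same libraries, so the shared orders largely follow from the choice and are no separate result. Between the 3 genes themselves r was 0.683 for Foxo1 and Foxo3, 0.683 for Foxo3 and Foxp1, and 0.143 for Foxo1 and Foxp1.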

How the data were processed

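ATAC-seq values were taken from the deposited table of RPPM for 16 libraries over 66177 regions. The authors trimmed reads, mapped them to mm9 with Bowtie (1.1.1 in the submitters' processing notes, another version in the methods), called peaks per sample with MACS2 at a q of 0.01, merged them and scaled reads to RPM over the reads in regions. They removed 1 BMPC_KO library outside 5 to 25% reads in peaks, and the notes also list Picard 1.127 and MACS2 2.1.0.20140616. Columns of 9 edgeR comparisons by the authors were not used. Whole reads were recovered from the deposited RPPM for 100% of values (tolerance 0.001 reads).

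Groups were taken from the labels. Alternatives changed the pseudocount, filter, scaling, spread, test, threshold and libraries. The 6 group means were fitted to log2(RPPM + 1) with limma 3.58.1 in R 4.3.3, with a mean-variance trend and 1 spread shared by all groups, and the script was tested on simulated data. A call needed an adjusted p no higher than 0.01 and a log2 difference of 1 or more. The edgeR 4.0.16 (TMM scaling) and DESeq2 1.42.0 tests on recovered reads were alternatives. The labels give no batches. Adjusted p-values measure the spread between libraries, each from 1 mouse in nB and BMPC and from a pool of 2 in GCB. The highest correlation between libraries was 0.980, so none was counted as a repeat.

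Named regions were, per gene, the start-site region (nearest to a start, more accessible on a tie), up to 3 called regions with the largest change each way from nB_C to BMPC_C, up to 2 each way from nB_C to GCB_C and from GCB_C to BMPC_C, any region called between KO and C (otherwise the smallest p in BMPC), and the highest mean. Start sites of pathway genes were named only where called, up to 3 each way per list, and some of them are not reported here. The genes, the lists and the rules were chosen with earlier results of these data known. Sequences were read from the mouse assembly NCBIM37 (mm9), and exons from GENCODE vM1. Motif shares of all regions were weighted to the members' widths in bins of 50 bases over 65891 regions.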

Additional observations from a re-analysis of the deposited data

Results flagged for a closer look

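In the 4 GCB_KO libraries, the only group large enough for a gap test, 3 of 33 values (30 regions and 3 sums) had a library standing apart by Dixon's 95% criterion, which chance gives in about 1 of 20. At the Foxo1 start-site region GCB_KO replicate 1 had 55.1 RPPM where the others had 34.4 to 37.3. At the Foxp1 exonic region starting at 98901664 the same library had 5.51 RPPM, nearest 1.40, on a depth of 907959 reads. At the Foxp1 region starting at 98957431 GCB_KO replicate 2 had 12.7 RPPM where the others had 19.8 to 21.0.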

How the results depend on the processing

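Counts of called regions over the 3 genes are given in each direction. From nB_C to GCB_C the 2 higher calls were 1 with a pseudocount of 0.1, quantile normalization, the compared groups only, no trend, edgeR's quasi-likelihood test or DESeq2 and 0 with a pseudocount of 5, and 1 to 2 with single libraries left out (1 without nB_C replicate 1 or 2, nB_KO replicate 2, GCB_KO replicate 2, or any GCB_C, BMPC_C or BMPC_KO library). A pseudocount of 5 also gave 18 lower calls in place of 34 from nB_C to GCB_C, 7 higher and 33 lower in place of 13 and 57 from nB_C to BMPC_C, and 4 lower in place of 23 from GCB_C to BMPC_C, which were 11 under quantile normalization and 15 to 24 with single libraries left out (15 without GCB_C replicate 1 or BMPC_C replicate 2). Calls in the same direction in both genotypes went from 24 to 13 (pseudocount 0.1), 8 (pseudocount 5) and 37 (edgeR's likelihood ratio test) for nB to GCB, from 52 to 29 for nB to BMPC and from 22 to 11 for GCB to BMPC (pseudocount 5). For nB to GCB they were 12 to 31 with single libraries left out, 12 without nB_KO replicate 1 and 15 without GCB_C replicate 2.

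Higher in BMPC_KO than BMPC_C were 1 region with the compared groups only, 9 by the quasi-likelihood test, 11 by the likelihood ratio test, 5 by DESeq2 and 4 with an adjusted p limit of 0.05, and 0 to 2 with single libraries left out (2 without GCB_KO replicate 1, 1 without BMPC_C replicate 1). Higher in GCB_KO than GCB_C were 2 with an adjusted p limit of 0.05. The KO effect differed between BMPC and nB at 2 regions by the quasi-likelihood test and 4 by the likelihood ratio test, and between BMPC and GCB at 1 by each of these and DESeq2. The cause of these changes was not tested. The GCB pools share names between genotypes but not their deviations (r = 0.0628 over 66177 regions). With a replicate block for these pools, 2 regions were higher in GCB_KO, 1 had a KO effect that differed between BMPC and GCB, and the calls from nB_C to GCB_C were 3 higher and 39 lower. Differences near 0 that were not called changed sign: at the Foxo1 start site from nB_C to BMPC_C (-0.011, quantile), at Foxo1 52199919 from nB_C to GCB_C (-0.0436 without GCB_C replicate 2 to 0.45 without GCB_C replicate 1) and from GCB_C to BMPC_C (-0.16 quantile, -0.0113 reads outside chrM, -0.17 without GCB_C replicate 1 to 0.32 without GCB_C replicate 2), and at Foxp1 99044625 from GCB_C to BMPC_C (-0.23 quantile, -0.0457 reads outside chrM, -0.0836 without GCB_C replicate 2 to 0.17 without GCB_C replicate 1, and -0.0137 with the block). The value of 3 reads was higher in GCB than in the other cell types.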
